A study of Mus musculus with 6 samples.

Results

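The mitochondrially encoded protein genes were measured in mouse KP cells in which hairpins against Npm1 were left off or switched on. The genes mt-Nd1, mt-Nd2, mt-Nd4, mt-Nd5, mt-Nd6, mt-Co1, mt-Co2, mt-Co3, mt-Cytb and mt-Atp6 were taken by symbol, 10 of the 13 protein genes of the mitochondrial genome and of 48526 genes in the count tables. Total RNA was sequenced from 3 stable lines (named here line 3, line 4 and line 5), each carrying the inducible vector pLKO.1-Tet on with a different hairpin against Npm1 (shNpm1-3, shNpm1-4 or shNpm1-5) and selected with puromycin. The group without doxycycline (3 libraries) held these lines untreated, and the group with it (3 libraries) held the same lines given 100 ng/ml, so that both groups carried the hairpin vector. The labels describe the cells no further than KP, give no duration of treatment, and name 1 library per line and condition. Doxycycline is a tetracycline, a class of antibiotics known to inhibit translation on mitochondrial ribosomes, and no library had doxycycline without a hairpin against Npm1, so the drug and the knockdown cannot be told apart. The lines stood in for replicates, and p-values measure the spread between them.

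The mammalian mitochondrial genome is a small circle that is transcribed from both strands into long RNAs, from which the tRNAs, rRNAs and messenger RNAs are cut. Its protein genes encode core subunits of the respiratory chain and of ATP synthase, and the remaining subunits of these complexes come from nuclear genes. Nuclear chromosomes also hold old copies of mitochondrial DNA, and a read that fits both places has no single place of origin.

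The libraries held 24391198 to 27341036 counts in genes. Reads that aligned to more than 1 place made up 31.4% to 37.8% of a file, the highest share being in the treated library of line 3, and the files do not say where these reads aligned. Npm1 itself, the target, was at 2002, 1851 and 1924 CPM (counts scaled to library size with TMM factors) in lines 3, 4 and 5 untreated and at 67.8, 245 and 400 CPM treated, which did not overlap. Some markers of other cell types differed between the groups. The 9 macrophage markers summed to 53.7 to 56.1 CPM untreated and 130 to 263 CPM treated (6 called higher, with Adgre1 at 0 to 0.04 CPM in the untreated libraries), and the 7 T and NK cell markers to 7.29 to 10.9 CPM and 0.08 to 0.23 CPM (7 called lower, with Cd3d and Nkg7 at 0 in each treated library). The 3 macrophage markers that were not called were Cd68 (log2 fold change 0.14), Cd14 (-0.14) and Ptprc (-0.69, lower in each line). Over all genes tested 0.963% were called higher and 1.32% lower. The part of other cell types in the values of the mitochondrial genes was not tested. In bulk RNA fewer cells of a type and less RNA per cell cannot be told apart.

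The members differ in how much of their sequence is repeated in the nuclear genome. In the GENCODE annotation of the build mm10, 7 annotated copies with at least 95% identity over at least 200 bases lie side by side on the minus strand of chromosome 1 (24611535 to 24616197). The gene mt-Co2 was identical to Gm28661 over 681 bases, mt-Atp6 to Gm10925 over 678 bases and mt-Co3 to Gm28437 over 783 bases, which is all but the last 3, 3 and 1 bases of these genes. In mt-Nd4 the first 876 of 1378 bases were identical to Gm28439, and in mt-Co1 the last 483 of 1545 bases differed from Gm29216 at 1 position. Other copies had diverged. Gm13340 on chromosome 2 (22588103 to 22589647) spans mt-Co1 at 97.6% identity, and Gm11410 on chromosome 4, named here after its values were seen, spans nearly all of mt-Cytb at 92.9%. The pairs below set stretches of these genes beside their copies. Each is 90 bases of the annotated strand, 5′ to 3′, from chrM:7013-7102, chrM:6390-6479, chrM:5772-5861 and chrM:14940-15029 of mm10, each followed by its nuclear copy (chr1:24615476-24615565, chr1:24616099-24616188, chr2:22589114-22589203 and chr4:80004784-80004873, all but the last on the minus strand). Capitals mark the letters that differ.
mt-Co2: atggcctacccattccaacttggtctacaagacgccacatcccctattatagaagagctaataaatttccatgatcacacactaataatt
Gm28661: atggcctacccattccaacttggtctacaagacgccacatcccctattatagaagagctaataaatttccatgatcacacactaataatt
mt-Co1: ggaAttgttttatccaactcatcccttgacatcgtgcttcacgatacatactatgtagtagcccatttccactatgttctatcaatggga
Gm29216: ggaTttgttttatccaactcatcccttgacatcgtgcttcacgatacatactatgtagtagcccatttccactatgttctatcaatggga
mt-Co1: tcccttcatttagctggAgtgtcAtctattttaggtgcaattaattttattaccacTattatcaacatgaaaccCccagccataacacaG
Gm13340: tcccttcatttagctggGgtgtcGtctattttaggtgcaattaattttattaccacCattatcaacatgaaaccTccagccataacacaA
mt-Cytb: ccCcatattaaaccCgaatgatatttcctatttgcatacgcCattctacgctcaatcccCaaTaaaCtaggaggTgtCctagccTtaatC
Gm11410: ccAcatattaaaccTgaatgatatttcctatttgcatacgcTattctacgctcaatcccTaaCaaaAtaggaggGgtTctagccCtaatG
The first pair has no difference in this stretch. The second has A1066T as its only difference, with positions counted from 1 at the first base of mt-Co1 and the mitochondrial base written before the position. The third has 5 differences (A462G, A468G, T501C, C519T and G534A) and the fourth has 10.

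The share of each gene that is found in no nuclear transcript was counted in windows of 50 bases, against all annotated transcripts of nuclear genes on both strands. It was 100% in mt-Nd1, mt-Nd6 and mt-Cytb, 92.4% in mt-Nd5, 91.8% in mt-Nd2, 48.9% in mt-Co1 and 37.8% in mt-Nd4. In mt-Atp6 it was 0.475%, in mt-Co3 0.136% and in mt-Co2 0%. With windows of 100 bases mt-Co1 came to 69.2% and mt-Nd4 to 39.2%, and mt-Atp6, mt-Co3 and mt-Co2 stayed under 1% (0.515%, 0.146% and 0.513%). The read length is not given in the sources used here, and nuclear sequence outside annotated transcripts was not searched.

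The counts followed this division. Over the 6 libraries mt-Co1 had 312769 counts, mt-Cytb 88638, mt-Nd1 62840, mt-Nd2 41624, mt-Nd5 41467, mt-Nd4 32185 and mt-Nd6 12198. By contrast mt-Co3 had 72, mt-Atp6 39 and mt-Co2 38. The 3 protein genes that are not among the members were as low, with 7 counts for mt-Nd3, 1 for mt-Nd4l and 1 for mt-Atp8. Windows of mt-Nd3 and mt-Nd4l were also shared almost throughout (2.01% and 1.21% found nowhere else). In mt-Atp8 100% of windows were found nowhere else and no annotated copy was found, but the stretch of chromosome 1 between Gm10925 and Gm28661, its counterpart in gene order, holds no annotated transcript of those compared. The copies held more counts than these members: Gm28437 had 1532 counts, 21.3 times those of mt-Co3, Gm10925 had 872, 22.4 times those of mt-Atp6, and Gm28661 had 424, 11.2 times those of mt-Co2. How many of the reads with more than 1 place belong to mt-Co2, mt-Co3 and mt-Atp6 is not in the files, so their low counts do not give the level of their RNA.

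**Figure D1:**
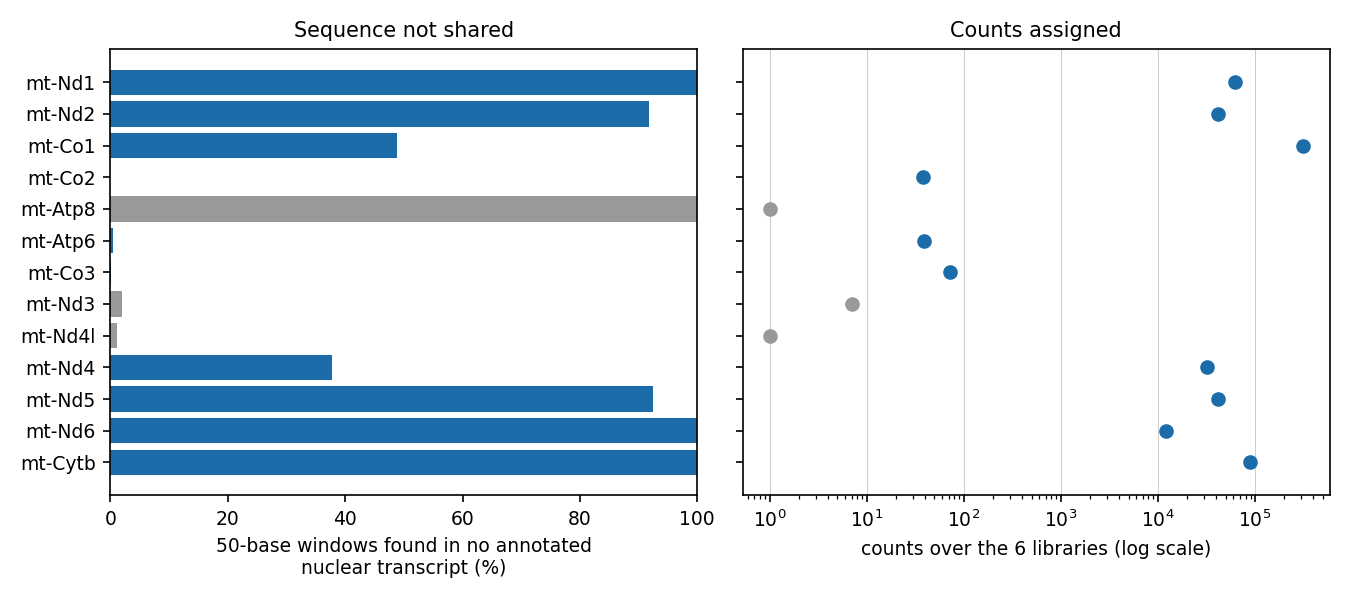
Left, the share (%) of 50-base windows of each mitochondrial protein gene found in no annotated nuclear transcript; right, its counts summed over the 6 libraries, on a log axis. Genes are in the order of the mitochondrial genome, blue for the members and grey for the other 3. The members mt-Co2, mt-Atp6 and mt-Co3, with under 1% of windows unshared, hold 38 to 72 counts, and the other 7 members hold 12198 to 312769.

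Levels of the 7 measurable members were compared per length, and also per window of 50 bases found nowhere else. In the untreated group mt-Co1, a core subunit of cytochrome c oxidase (complex IV), was the highest at 1300 ± 312 CPM per kb (SD, n = 3), followed by mt-Cytb, the cytochrome b of complex III, at 448 ± 73.4 (SD, n = 3). The complex I subunit mt-Nd1 was at 397 ± 82.0 and mt-Nd2 at 210 ± 46.5 CPM per kb, and mt-Nd6, mt-Nd4 and mt-Nd5 stood together at 137 ± 26.9, 131 ± 28.9 and 130 ± 32.8 (SD, n = 3 each). The steps from mt-Cytb to mt-Nd1 and among the last 3 were smaller than their SDs. Within each untreated library mt-Cytb was above mt-Nd1 (513 against 477, 368 against 313 and 463 against 400 CPM per kb in lines 3, 4 and 5). Per 1000 unshared windows mt-Nd4 moved from the lowest ranks to 359 ± 79.3 CPM, which was within an SD of mt-Nd1 (418 ± 86.4) and above mt-Nd2 (240 ± 53.1), mt-Nd6 (152 ± 29.7) and mt-Nd5 (145 ± 36.5; SD, n = 3 each). On that scale mt-Nd4 was below mt-Nd1 in each untreated library (430 against 503, 273 against 330 and 375 against 421 CPM in lines 3, 4 and 5). There mt-Co1 was at 2747 ± 660 CPM (SD, n = 3), and mt-Co1 thus led on both scales. With windows of 100 bases the untreated mean of mt-Co1 was 2008 CPM and that of mt-Nd1 442 CPM. The level of mt-Co1 on this scale therefore depends on the window length. The counts of mt-Co1 made up 53.8% to 57.1% of the members' counts in the untreated libraries and 48.0% to 52.3% in the treated ones. Since mt-Nd6 is the only member on the other strand and shares 14 bases with mt-Nd5, and the strand setting of the counting is not given, RNA of the opposite strand at these genes cannot be separated.

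With doxycycline none of the 8 members that passed the filter on low counts was called (quasi-likelihood test of edgeR, p adjusted over all genes tested by Benjamini-Hochberg, threshold 0.05), in either direction. Over all 14531 genes tested 2.28% were called (0.963% higher and 1.32% lower). The groups overlapped for each of the 10 members, while 22.6% of all genes tested had groups that did not. At an unadjusted p under 0.05 there was 1 member, mt-Nd2, against 16.3% of all genes, and DESeq2 also called 0 members with 1 at that level. All 8 fitted log2 fold changes were above 0, from 0.01 to 0.57, with a median of 0.30 beside 0.00 for all genes. That median was 0.14 without the untreated library of line 4 and 0.15 without the treated library of line 3. With offsets for transcript length and GC content, fitted per library, the median was 0.019, and 4 of the 8 (mt-Nd1, mt-Nd6, mt-Co1 and mt-Co3) were below 0. The share of counts in genes taken by the members was 0.432%, 0.289% and 0.346% in the untreated and 0.399%, 0.405% and 0.412% in the treated libraries of lines 3, 4 and 5. Treated libraries thus lay within the untreated range, and the untreated library of line 4 was the lowest.

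Among the subunits of complex I, the NADH dehydrogenase that passes electrons into the chain, mt-Nd2 differed most. It was at 265, 169 and 221 CPM in lines 3, 4 and 5 untreated and at 390, 244 and 336 CPM treated. Each line was higher with doxycycline, by 1.47, 1.45 and 1.52 times, but the groups overlapped, since untreated line 3 exceeded treated line 4. The log2 fold change was 0.57 (SE 0.21, 95% interval 0.11 to 1.02, adjusted p = 0.205 by edgeR). With the line as a block, which compares within lines, mt-Nd2 had the same fold with SE 0.12 (adjusted p = 0.0671 by edgeR). With no filter on low counts mt-Nd2 was called (adjusted p = 0.0203 by edgeR, range over the alternatives 0.0203 to 0.676). In that setting 1052 of 27007 genes were called, against 332 of 14531 in the main fit. Its SEs were smaller, at 0.16 for mt-Nd2 and at 0.19 in place of 0.49 for Npm1. With the length and GC offsets the log2 fold change of mt-Nd2 was 0.27 with the line as a block and 0.29 without.

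Another complex I subunit, mt-Nd4, was at 216, 137 and 188 CPM untreated and 297, 196 and 220 CPM treated, in lines 3, 4 and 5. It was also higher in each line, with groups that overlapped. Its log2 fold change was 0.40 (SE 0.20, 95% interval -0.04 to 0.84, adjusted p = 0.359 by edgeR). With the line as a block the SE was 0.13 (adjusted p = 0.175 by edgeR). The third member that was higher in each line was mt-Cytb, at 587, 421 and 530 CPM untreated and 772, 567 and 567 CPM treated (log2 fold change 0.31 with SE 0.18, adjusted p = 0.438 by edgeR). In mt-Cytb the groups overlapped through untreated line 3. Of all genes tested 19.1% were higher in all 3 lines, against 3 of these 8 members.

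The remaining complex I subunits were not on the same side in every line. The first gene after the rRNAs, mt-Nd1, was at 456, 300 and 383 CPM in lines 3, 4 and 5 untreated and 451, 404 and 432 CPM treated (log2 fold change 0.18 with SE 0.17, adjusted p = 0.657 by edgeR). Its 3 treated libraries sat close together, while the untreated ones ranged from below to just above them. The large subunit mt-Nd5 was at 302, 184 and 226 CPM untreated and 292, 318 and 270 CPM treated (log2 fold change 0.31 with SE 0.18, adjusted p = 0.441 by edgeR). Line 4 had a ratio of 1.73 for this gene, the largest in any line among the 7 members with over 10 CPM, and line 3 a ratio of 0.967. The member on the other strand, mt-Nd6, was at 84.0, 56.4 and 73.5 CPM untreated and 112, 78.9 and 69.9 CPM treated (log2 fold change 0.29 with SE 0.20, adjusted p = 0.526 by edgeR). In mt-Nd6 it was line 5 that was lower with doxycycline.

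In complex IV, mt-Co1 was at 2539, 1598 and 1887 CPM in lines 3, 4 and 5 untreated and at 2137, 1846 and 2080 CPM treated. The treated libraries lay within the untreated range, with line 3 lower and lines 4 and 5 higher than their untreated counterparts. The group means were 2008 ± 482 and 2021 ± 154 CPM (SD, n = 3 each), and the log2 fold change of 0.01 (SE 0.20, adjusted p = 0.989 by edgeR) had a 95% interval of -0.43 to 0.45. The second complex IV member with a test, mt-Co3, had 12, 10 and 12 counts untreated and 16, 13 and 9 counts treated (log2 fold change 0.17 with SE 0.41, adjusted p = 0.89 by edgeR). With under 1% of its windows unshared, these counts do not show whether the RNA of mt-Co3 differed. The members mt-Co2 (6, 6 and 4 counts without, 7, 7 and 8 with) and mt-Atp6, a subunit of the proton channel of ATP synthase (8, 1 and 7 counts without, 9, 5 and 9 with), did not pass the filter.

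**Figure D2:**
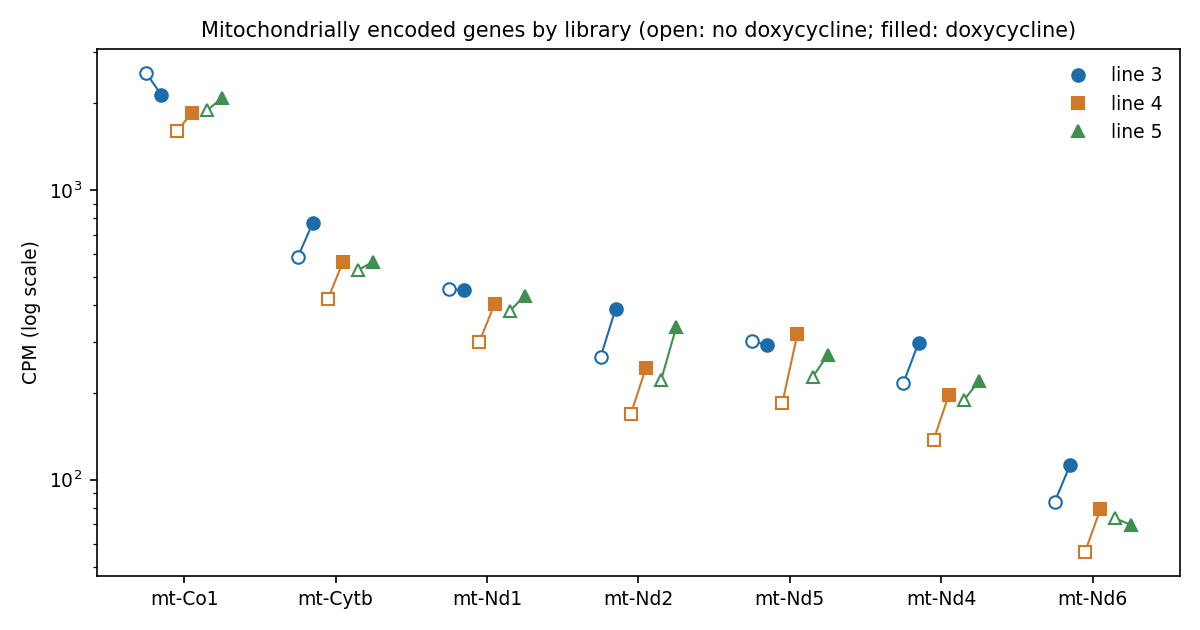
CPM of the 7 members with over 10 CPM in each of the 6 libraries, on a log axis; open symbols are without and filled symbols with doxycycline, joined within a line. Untreated line 4 (open squares) is the lowest library for each of these genes, and mt-Co1 is lower with doxycycline in line 3 (2137 against 2539 CPM) while mt-Nd2 is higher in all 3 lines.

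Part of the variation was common to the members. Untreated line 4 was the lowest of the 6 libraries for each of the 7. This was not particular to the members. The same library was lowest for the summed CPM of the nuclear subunits (16074, against 16926 to 22458 in the others). It was also lowest for the mitochondrial rRNAs (264 against 347 to 631) and the genes that make, process and translate mitochondrial RNA (1810 against 1931 to 2252). Across the 6 libraries the log2 CPM of these genes correlated with Pearson's r of 0.632 to 0.988 over the 21 pairs, a description over libraries that share groups, lines and scaling. The closest pair was mt-Cytb with mt-Nd4 (r = 0.988) and the least close mt-Co1 with mt-Nd6 (r = 0.632). The ratio of 2 members within a library did not overlap between the groups for 6 of the 21 pairs. Over all pairs of genes with at least 50 CPM this was so for 26.2%, so the members' count is near the background. The ratio that differed most was that of mt-Nd2 to mt-Co1, with mean log2 values of -3.20 without and -2.67 with doxycycline.

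The lines themselves were compared by the line terms of a model with doxycycline and line. No member was called (smallest adjusted p = 0.868 by edgeR), and 0% of all genes were. The members mt-Nd2, mt-Nd4 and mt-Nd6 were under 0.05 before adjustment, as were 4.59% of all genes. Among the untreated libraries these members are highest in line 3 and lowest in line 4, but so are mt-Nd1, mt-Nd5, mt-Co1 and mt-Cytb. Among the treated libraries mt-Nd2 and mt-Nd4 are again lowest in line 4, and mt-Nd6 is lowest in line 5 (69.9 CPM).

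**Figure D3:**
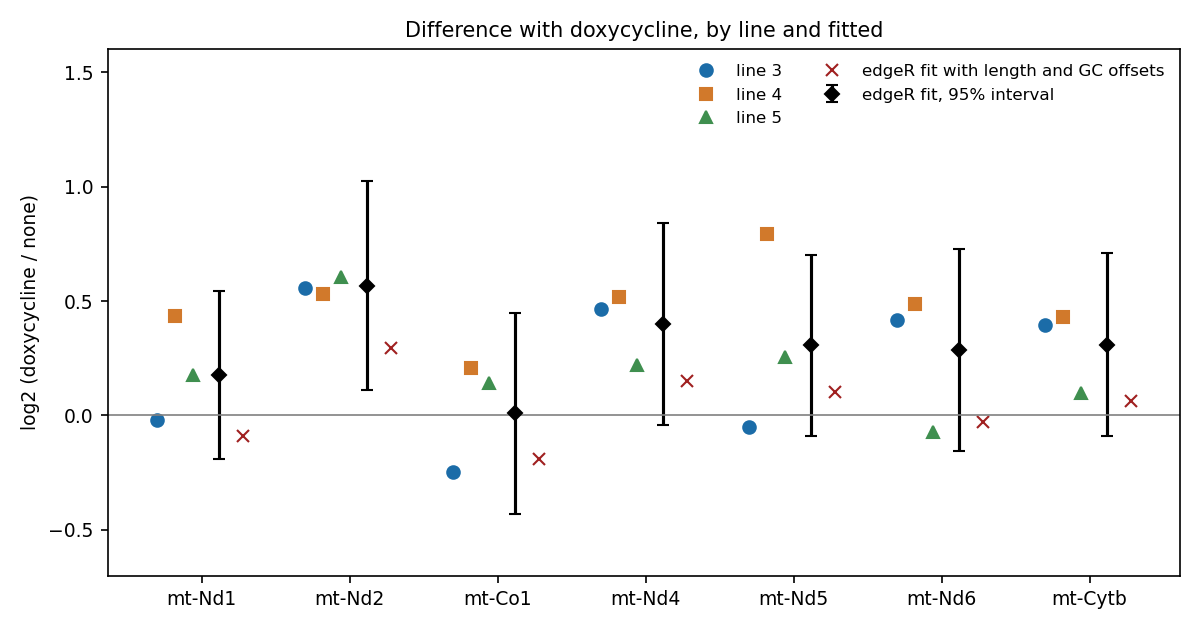
Log2 ratio of doxycycline over none for the 7 members with over 10 CPM, in genome order. Coloured symbols are the 3 lines, black diamonds the fitted log2 fold change with its 95% interval, and red crosses the fit with length and GC offsets; the interval of mt-Nd2 (0.11 to 1.02) lies above 0, and the crosses lie below the diamonds for each gene.

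The chromosome 1 copies were read in the same libraries. Summed over the 7 they were at 14.7 to 29.0 CPM untreated and 24.3 to 33.3 CPM treated, with untreated line 4 the lowest as in the members. Of the 9 copies on any chromosome with at least 10 counts, 7 were tested, and none was called (smallest adjusted p = 0.31 by edgeR, 0 at an unadjusted p under 0.05). The copy of mt-Co3, Gm28437, was at 8.24 ± 2.94 CPM untreated and 11.5 ± 1.11 CPM treated (SD, n = 3 each; log2 fold change 0.48 with SE 0.25, adjusted p = 0.376 by edgeR). The copy of mt-Co2, Gm28661, was at 2.18 ± 0.490 and 3.31 ± 0.480 CPM (SD, n = 3 each; log2 fold change 0.60 with SE 0.27, adjusted p = 0.31 by edgeR). Gm10925, Gm29216, Gm28439 and the chromosome 2 copy Gm13340 had log2 fold changes of 0.31, 0.33, 0.31 and 0.19. Which of these reads came from mitochondrial RNA cannot be told from counts.

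The mitochondrial rRNAs are cut from the same precursor upstream of mt-Nd1, and neither was called. The large rRNA mt-Rnr2 was at 238, 162 and 219 CPM in lines 3, 4 and 5 untreated and 429, 310 and 227 CPM treated (log2 fold change 0.64 with SE 0.23, adjusted p = 0.192 by edgeR). Lines 3 and 4 had ratios of 1.80 and 1.91, and line 5 a ratio of 1.04. The small rRNA mt-Rnr1 was at 132, 102 and 128 CPM untreated and 202, 121 and 173 CPM treated (log2 fold change 0.45 with SE 0.19, adjusted p = 0.272 by edgeR). The rRNAs took 0.0266% to 0.0359% of counts in genes without and 0.0415% to 0.0565% with doxycycline. In CPM the groups overlapped for each rRNA taken alone, and 22.6% of all genes tested had groups that did not overlap.

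The nuclear genome encodes the other subunits of these complexes. Of 75 tested genes of complexes I to V, 3 were called higher and 0 lower, against 0.963% of all genes called higher, and the other 72 did not pass. Their median log2 fold change was 0.31. At an unadjusted p under 0.05 there were 42 of the 75, against 16.3% of all genes, and 47 had groups that did not overlap, all higher with doxycycline, against 11.3% of all genes. The 3 called were Ndufs6, a subunit of complex I (92.9 ± 3.22 CPM untreated and 135 ± 5.71 CPM treated, SD, n = 3 each; log2 fold change 0.54 with SE 0.11, adjusted p = 0.0373 by edgeR), with 2 complex III subunits, Uqcrb and Uqcr10 (log2 fold changes 0.56 and 0.57 with SE 0.12 and 0.13, adjusted p = 0.0452 and 0.0474 by edgeR). The number called was 0 with the line as a block, 0 when any untreated library was left out, 0 without the treated library of line 5, 0 without line 4 or line 5, and 11 without the treated library of line 3. The calls over all genes moved as well, from 332 of 14531 in the main fit to 243 with the block. They were 62 of 14530 without line 4 and 1551 of 14968 without the treated library of line 3. The median of the 75 was 0.30 with the block and 0.28 to 0.34 when an untreated library was left out.

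By complex, all 36 nuclear genes of complex I were above 0 with a median of 0.31, beside 0.18 to 0.57 for its 5 members. The 9 of complex III had a median of 0.34, beside 0.31 for mt-Cytb. The 11 of complex IV had a median of 0.30 and ranged from 0.15 to 0.59, and mt-Co1, at 0.01, lay below all of them. The 95% interval of mt-Co1 was -0.43 to 0.45. Its value ranged from -0.13 to 0.21 without a library or line, with 0.21 when the untreated library of line 3 was left out. Whether mt-Co1 differed from those subunits was not tested. With the length and GC offsets the median of the 75 nuclear genes was 0.23 and that of the 8 members 0.019. The 15 of ATP synthase (complex V) had a median of 0.30, with no measurable mitochondrial partner. The 4 genes of complex II, succinate dehydrogenase, which has no mitochondrially encoded subunit, had a median of 0.17. Genes with the smallest p where none was called were Ndufa4 and Cox7a2 in complex IV (0.59 and 0.47, adjusted p = 0.0699 and 0.119 by edgeR), Atp5k and Atp5g1 in complex V (0.47 and 0.50, adjusted p = 0.0768 and 0.11 by edgeR), and Sdhd and Sdhc in complex II (0.37 and 0.17, adjusted p = 0.206 and 0.569 by edgeR).

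**Figure D4:**
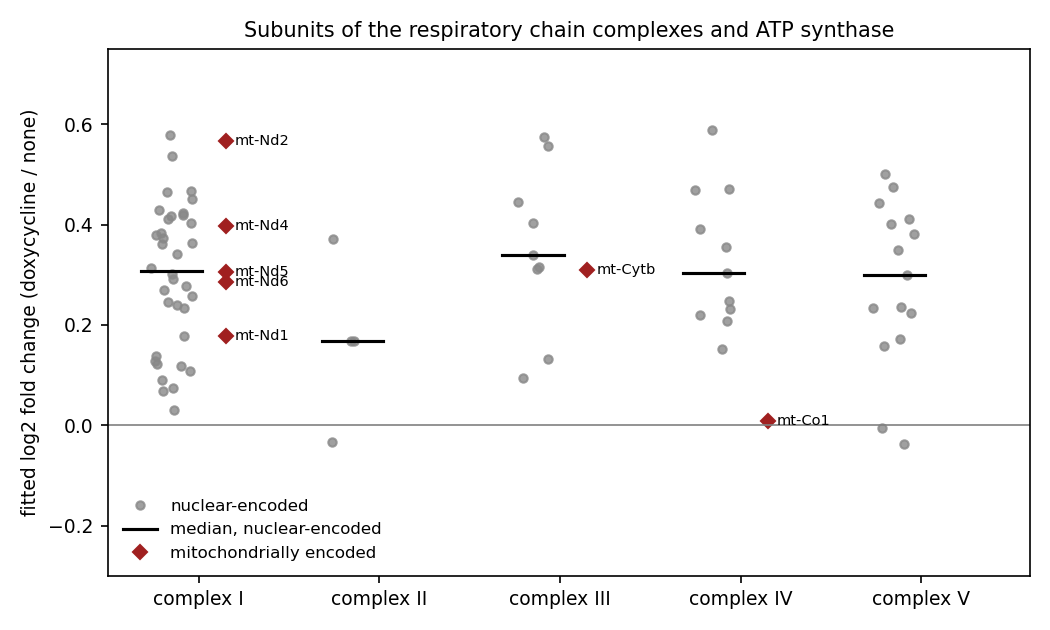
Fitted log2 fold change (doxycycline over none) of nuclear-encoded subunits (grey, with their median as a bar) and of the members with over 10 CPM (red), by complex. The median is 0.30 to 0.34 in complexes I, III, IV and V and 0.17 in complex II. The point of mt-Co1, at 0.01, lies below the nuclear genes of complex IV, with a 95% interval (not drawn) of -0.43 to 0.45.

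Genes that make, process and translate mitochondrial RNA were read next. None of the 50 tested was called by edgeR, against 2.28% of all genes, and their median log2 fold change was 0.13. At an unadjusted p under 0.05 (edgeR) there were 9 of the 50, near the 16.3% of all genes. DESeq2 called 1 of the 50, where it called 702 of all 27007 genes. Without the treated library of line 3, edgeR called 2 of the 50, where it called 1551 of all 14968 genes. The 10 genes of mitochondrial transcription had a median of 0.16. Their smallest p were those of the elongation factor Tefm (42.2 ± 2.64 to 55.6 ± 6.14 CPM, SD, n = 3 each; log2 fold change 0.40 with SE 0.13, adjusted p = 0.164 by edgeR) and Mterf2, of the MTERF family (0.46, adjusted p = 0.166 by edgeR). The 8 genes of mitochondrial DNA replication had a median of 0.11. Their smallest p were those of the single-strand binding protein Ssbp1 (0.38, adjusted p = 0.171 by edgeR) and the exonuclease Mgme1 (0.46, adjusted p = 0.227 by edgeR). The 21 genes of RNA processing and stability had a median of 0.14, with the oligoribonuclease Rexo2 at 0.43 and the polynucleotide phosphorylase Pnpt1 at 0.37 (adjusted p = 0.196 and 0.236 by edgeR). The 11 translation factors had a median of 0.10, with the release factor genes Mtrf1 at 0.56 and Mtrf1l at 0.29 (adjusted p = 0.0728 and 0.418 by edgeR).

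Outside the mitochondrial genome, the genes whose log2 CPM followed the members' mean most closely over the 6 libraries, among 10184 genes with at least 5 CPM, were Kbtbd3 (Pearson's r = 0.995), Decr1 (0.991), Ube2f (0.990), Tdp2 (0.989) and Srp14 (0.986). In each of the 5, untreated line 4 was the lowest library and treated line 3 the highest. None was called with doxycycline (adjusted p = 0.47 to 0.748 by edgeR). These genes were chosen by that correlation over the same libraries, so neither observation is a separate result.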

How the data were processed

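The deposited files hold whole-number read counts for each gene as the authors made them, 1 library per file and not normalized. The submitters' processing notes name STAR, HTSeq, CASAVA, Picard, bedtools, DESeq2 and R 3.3.0, and the build mm10. Annotation release, strand setting and read length: not given in the sources used here. The 5 rows that name no gene (43.7% to 47.7% of reads) were left out. Symbols, coordinates and transcript sequences came from GENCODE release M21 on that build, which named 48144 of 48526 identifiers, and copies were sought with blastn 2.17.0.

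Groups and lines came from the labels. All genes were fitted with edgeR 4.0.16 (R 4.3.3; filterByExpr, TMM, quasi-likelihood F test, Benjamini-Hochberg adjustment). SE was taken as the fold change on the log2 scale over the root of F, and 95% intervals are per gene. A floor of 3 counts was 0.11 to 0.123 CPM. The procedures were tested on simulated data. Line numbers pair the samples through the shared stable line. The deviations of same-numbered libraries from their group means correlated with r = 0.0048, 0.0674 and 0.0276 in lines 3, 4 and 5, and with -0.102 to 0.067 between lines. Libraries of a group were not duplicates (chi-square per degree of freedom 7.86 to 108). Alternatives were RLE or no scaling, scaling without mitochondrial genes, no filter, DESeq2 1.42.0, the line as a block, length and GC offsets, and each library or line left out.

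The members, lists and naming rule were chosen with earlier results of these data known. The rule took the members, the other mitochondrial protein and rRNA genes, Npm1, up to 3 called genes per list or otherwise the 2 of smallest p, up to 6 copies with at least 10 counts, and the 5 genes most alike in pattern.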

Additional observations from a re-analysis of the deposited data

Results flagged for a closer look

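Of the members with at least 10 counts in each library, 4 had ratios of doxycycline over none that went opposite ways in the lines. Each line has 1 library per condition, so these differences between lines were not tested. Of 14531 genes tested 2779 were higher and 2836 lower in all 3 lines, so most genes were not on the same side in every line. The log2 ratio of mt-Co1 was -0.25 in line 3, 0.21 in line 4 and 0.14 in line 5. That of mt-Nd1 was -0.018, 0.43 and 0.18, and that of mt-Nd5 was -0.048, 0.79 and 0.25, in the same order. For mt-Nd6 they were 0.42, 0.49 and -0.073, with line 5 going the other way.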

How the results depend on the processing

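No member was called in 16 of the 17 alternatives, and with no filter on low counts 1 was. The replicate block changed no member's call and took the nuclear subunits called from 3 to 0; that count was 1 with no scaling factors, 10 with DESeq2, 1 with the offsets and the block together, and 0 to 11 without a library or line. Expression factors called were 1 with DESeq2 and 0 to 2 without a library or line. Over all genes 332 were called, 1052 with no filter, 702 with DESeq2, and 62 (without line 4) to 1551 (without the treated library of line 3) otherwise. Npm1 was not called without the untreated library of line 3 (log2 fold change -2.99, adjusted p = 0.0937 by edgeR) or without line 4 (-3.07, adjusted p = 0.177 by edgeR), with a fold close to the -3.02 of all libraries. The members' median log2 fold change, 0.30, was 0.019 with the length and GC offsets, -0.0049 with offsets and the block, and 0.14 to 0.42 without a library or line; the cause was not tested. With the offsets, and with offsets and the block, values turned to -0.088 and -0.087 for mt-Nd1, -0.027 and -0.061 for mt-Nd6, -0.19 and -0.18 for mt-Co1, and -0.10 and -0.12 for mt-Co3. Without a library or line mt-Co1 ranged from -0.13 to 0.21 and mt-Co3 from -0.17 to 0.41, and mt-Co1 was -0.0033 with no filter. As a share of all reads the members took 0.194% without and 0.222% with doxycycline, in place of 0.356% and 0.405%. Low counts limit mt-Co2, mt-Co3 and mt-Atp6, whose sequence is shared with nuclear copies; depth as the limit was not tested.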

Other observations

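The mitochondrial genome also holds 22 tRNA genes, of which 15 had 0 counts in all libraries. The gene of proline tRNA, mt-Tp, was the only 1 with over 100 counts in a library. It had 220, 159 and 184 counts untreated and 281, 227 and 241 treated, in lines 3, 4 and 5 (log2 fold change 0.44 with SE 0.23, adjusted p = 0.386 by edgeR), and untreated line 4 was again the lowest.

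Malat1 and Neat1, RNAs that stay in the nucleus, were at 139 to 210 and 171 to 217 CPM without doxycycline and at 184 to 211 and 110 to 268 CPM with it, and neither was called (smallest edgeR adjusted p = 0.497). The 7 epithelial markers summed to 10124 to 12109 CPM without and 8899 to 10608 CPM with doxycycline, of which Krt8 and Krt18 were the most abundant, and 1, Cldn4, was called lower. Markers of B cells, fibroblasts and endothelium summed to under 7 CPM in each library (at most 0.96, 6.55 and 1.29 CPM).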
